A study of Zea mays subsp. mays with 2 samples.

Results

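A nested sense locus is a transcribed locus that starts and ends inside a longer locus of the same strand and chromosome. In a table of 37398 maize loci, 3215 (8.60%) met this description, by coordinates alone and without use of any expression value. The longest locus around each was taken as its host, which gave 2049 hosts (5.48% of all loci). The libraries were 1 of roots and 1 of shoots from seedlings of the inbred line B73, both collected 14 days after germination and with no treatment named in the labels. Both held polyadenylated RNA that was sequenced with its strand kept. The labels do not say how many plants each library holds, and without gene names the tissues could not be checked against marker genes. Levels are in FPKM as deposited, a fragment number scaled by the length of the transcript and by the size of the library, and positions are those of B73 RefGen_v2. Since each tissue has 1 library, no difference between roots and shoots has a replicate check, no test was possible, and every value below describes these 2 libraries.

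Assemblers such as Cufflinks join overlapping exons on a strand into 1 locus. A separate locus inside another of the same strand is therefore typically built from reads that fall in an intron of the host, or in a gap between its exons. Such reads can come from introns that were kept or not yet spliced, from exons that no read linked to the rest of the gene, from small independent genes, or from noncoding RNAs of the sense strand. Plant introns also often hold transposable elements, which can be transcribed. Maize is known for large introns filled with such elements. The table gives no exons, no splice junctions and no gene names, and 0 of its 37398 identifiers matched the 49888 genes of the RefSeq table for assembly Zm-B73-REFERENCE-NAM-5.0. Whether a nested locus is exonic or intronic, coding or noncoding, was therefore not analysed here, and loci are identified by position.

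Nested loci were short pieces inside mid-sized to large hosts. Their median span, introns included, was 283 bp, with quartiles of 189 and 459 bp, and 2504 of them (77.9%) spanned at most 500 bp. Among the 34183 loci that were not nested, 11.0% were that short and the median span was 2760 bp. The hosts had a median span of 5903 bp, with quartiles of 4001 and 10274 bp, and 228 of them exceeded 20 kb. A nested locus covered a median of 4.08% of its host. The rule requires the inner locus to be the shorter one, so the direction of this difference is fixed by the choice of members.

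**Figure D1:**
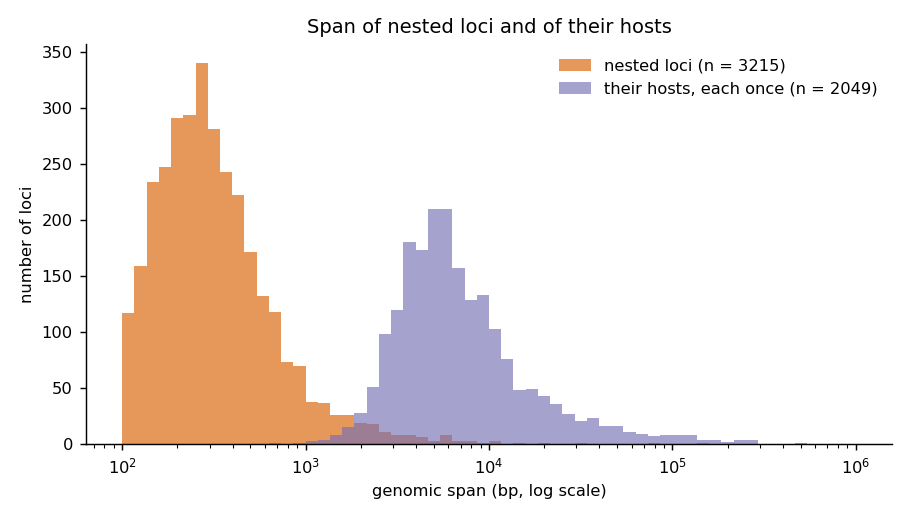
Number of loci by genomic span in bp, on a log axis, for the 3215 nested loci and for their 2049 hosts counted once each. Nested loci centre on a median of 283 bp and hosts on a median of 5903 bp, with little overlap between the distributions.

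The extremes of span were far apart. The shortest nested loci measured 101 bp, close to the 100 sequencing cycles, and 17 had exactly this span. One of them lay at chr1:22383493-22383593 (minus strand) and stood at 57.4 FPKM in roots and 6.30 in shoots. Its host of 5874 bp stood at 109 FPKM in roots and 55.5 in shoots, so the short locus was lower than the host in both libraries and more unequal between them. The longest nested locus spanned 150734 bp, at chr1:165814484-165965217 (plus strand), and filled most of a host of 157640 bp. It had 12.4 FPKM in roots and 13.8 in shoots, against 5.47 FPKM in roots and 25.1 in shoots for the host. In all, 83 nested loci spanned over 2000 bp.

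Nesting was nearly always clear-cut and mostly 1 layer deep. No nested locus shared a start or an end with its host. The one closest to a host end lay 24 bp inside it, on chromosome 3 from 108706717 to 108706965, with 62.1 FPKM in roots and 112 in shoots, in a host at 84.2 FPKM in roots and 168 in shoots. Only 19 same-strand pairs overlapped with neither locus inside the other, against 3239 pairs in which one contained the other. The pair nearest to being nested lay on chromosome 3, where a locus from 105959091 to 105962270 began 98 bp ahead of the longer one. It had 0.338 FPKM in roots and 4.57 in shoots, and the longer locus 0.467 FPKM in roots and 4.55 in shoots. Of the nested loci, 3192 lay inside a single longer locus, 22 inside 2 and 1 inside 3, and 7 nested loci themselves contained another locus.

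The triple case lay on the plus strand of chromosome 6. A locus of 101 bp, at positions 141673558 to 141673658, had 95.8 FPKM in roots and 435 in shoots. The 3 longer loci around it spanned 14690, 20551 and 22237 bp and overlapped each other in part. Their levels in roots were 2.89, 65.8 and 29.2 FPKM, and in shoots 5.29, 95.3 and 193 FPKM. The short locus was above each of them in both libraries, and all 4 were higher in shoots.

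Most hosts held a single nested locus. There were 1408 such hosts (68.7%), 520 with 2 or 3 nested loci, 112 with 4 to 7 and 9 with 8 or more. Successive nested loci of a host were separated by a median of 324.5 bp, and 7 of 1166 such pairs overlapped. The share of loci that were nested varied little among the 10 chromosomes, from 7.96% on chromosome 4 to 9.32% on chromosome 1. The plus strand carried 1680 nested loci and the minus strand 1535. On the opposite strand, 871 loci lay inside a longer locus, so nesting on the same strand was 3.69 times as frequent, and 68 nested sense loci also lay inside an opposite-strand locus.

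Longer loci were more often hosts, and so were loci of middle level. Among loci that were not themselves nested, the share that held a nested locus was 0.423% at 501 to 2000 bp, 6.21% at 2001 to 5000 bp, 12.8% at 5001 to 10000 bp and 31.0% above 50 kb. Per 10 kb of host, however, the number of nested loci was 3.56 in hosts of 2001 to 5000 bp and 0.188 in hosts above 50 kb. Loci of 2 to 20 kb were classed by the higher of their 2 levels. The share with a nested locus was 4.42% at or under 5 FPKM, 11.9% from 20 to 50 FPKM and 4.21% above 100 FPKM. The median span of the loci in these classes was 3582, 4769 and 3742 bp. Span and level thus went together here, and their parts were not separated. Hosts of 2001 to 5000 bp had a median of 17.9 FPKM in roots and 16.2 in shoots, against 12.0 and 12.9 FPKM for the other loci of that span. At 10001 to 20000 bp the order was the other way, with 13.4 FPKM in roots and 15.5 in shoots for hosts and 16.4 and 17.3 FPKM for the others.

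The position of nested loci leaned slightly to the 5′ side. Measured along the strand from the 5′ end, the midpoint lay at a median of 0.445 of the host span, with quartiles of 0.256 and 0.658. The 5′ end was the nearer one for 1830 nested loci (56.9%) and the 3′ end for 1384. In 10 bins of equal length along the host, bin 4 held the most, with 426 (13.3%), the first bin 187 (5.82%) and the last bin 99 (3.08%). Of all nested loci, 248 (7.71%) lay within 500 bp of a host end. The median distance was 2532 bp to the 5′ end and 3164 bp to the 3′ end.

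**Figure D2:**
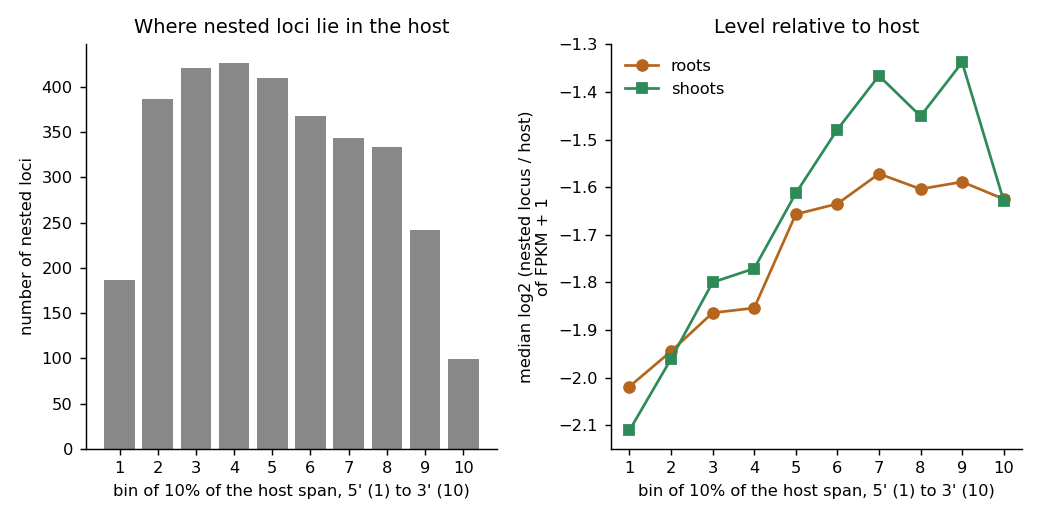
Left, number of nested loci in each of 10 equal bins of the host span from the 5′ to the 3′ end; right, the median log2 ratio of nested locus over host (FPKM + 1) in each bin, in roots and in shoots. Numbers peak in bin 4 at 426 and are lowest in the last at 99, and the median ratio is lowest in the first bin, at -2.02 in roots and -2.11 in shoots.

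Nested loci were low beside their hosts. Their median level was 3.27 FPKM in roots, with quartiles of 1.47 and 8.16 FPKM, and 3.89 FPKM in shoots, with quartiles of 1.81 and 8.70 FPKM. Hosts had medians of 16.0 FPKM in roots and 16.2 in shoots, and all listed loci had 8.20 FPKM in roots and 8.91 in shoots. Within a pair, the nested locus stood at a median of 22.9% of its host's level in roots and 25.4% in shoots, and the 10th and 90th percentiles were 5.07% and 92.0% in roots and 6.08% and 97.7% in shoots. The root percentages leave out 3 pairs whose host was listed at 0 there. As log2((nested FPKM + 1)/(host FPKM + 1)) the medians were -1.74 in roots and -1.64 in shoots. In roots 1321 nested loci (41.1%) and in shoots 1238 (38.5%) were at least 4-fold below the host on that scale. All nested loci together held 2.33% of the FPKM sum in roots and 2.24% in shoots. Every listed locus exceeds 1 FPKM in roots or in shoots, so nested loci low in both are outside these figures.

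A minority of nested loci exceeded the host. In roots 286 (8.90%) were above it and in shoots 315 (9.80%), of which 190 were above it in both libraries, while 2804 (87.2%) were above it in neither. Antisense nested loci were above their hosts more often, in 22.4% of 871 pairs in roots and 22.2% in shoots, although their median share of the host level was like that of the sense ones, at 22.2% in roots and 23.0% in shoots. Antisense hosts were more often low, with 20.2% of 704 at or under 5 FPKM in both libraries, against 8.93% of the sense hosts. The part of host level in the antisense contrast was not tested. Among sense pairs, exceeding the host was more frequent where the host was low than where it was high. Nested loci far below a low host fall under the listing limit of 1 FPKM, which raises that share by construction. Hosts were classed by the higher of their 2 levels, and the shares were 38.1% of pairs in roots and 37.7% in shoots for hosts at or under 5 FPKM, but 3.16% and 3.35% for hosts above 50 FPKM. Nested loci that themselves reached over 50 FPKM exceeded the host in 42.3% of 111 pairs in roots and 50.5% in shoots. They were picked by their own level, which also raises their share. Nested loci over 2000 bp did so in 25.3% of pairs in roots and 33.7% in shoots. By host span the shares were 33.3% in both libraries for the 42 pairs with hosts of at most 2000 bp, and 19.9% in roots and 24.6% in shoots for hosts above 50 kb.

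Higher hosts held higher nested loci. The rank correlation of the 2 levels, over 3215 pairs, was 0.56 in roots and 0.48 in shoots, where pairs share the library and nested loci of 1 host share that host. From the lowest to the highest class of host level the median nested level was 1.35, 1.77, 3.51 and 10.5 FPKM in roots and 2.02, 2.02, 4.09 and 8.97 FPKM in shoots, for hosts at or under 5, from 5 to 10, from 10 to 50 and above 50 FPKM. The nested levels thus grew less than the host levels, whose medians in these classes were 2.60, 6.23, 18.2 and 64.7 FPKM in roots and 2.94, 6.77, 18.0 and 61.7 FPKM in shoots. The listing limit of 1 FPKM holds up the nested levels in the low classes, and its part in this was not tested. Nested loci of higher hosts were also shorter, with median spans of 401.5, 346.5, 269 and 226 bp in these classes. The part of span was not tested either.

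**Figure D3:**
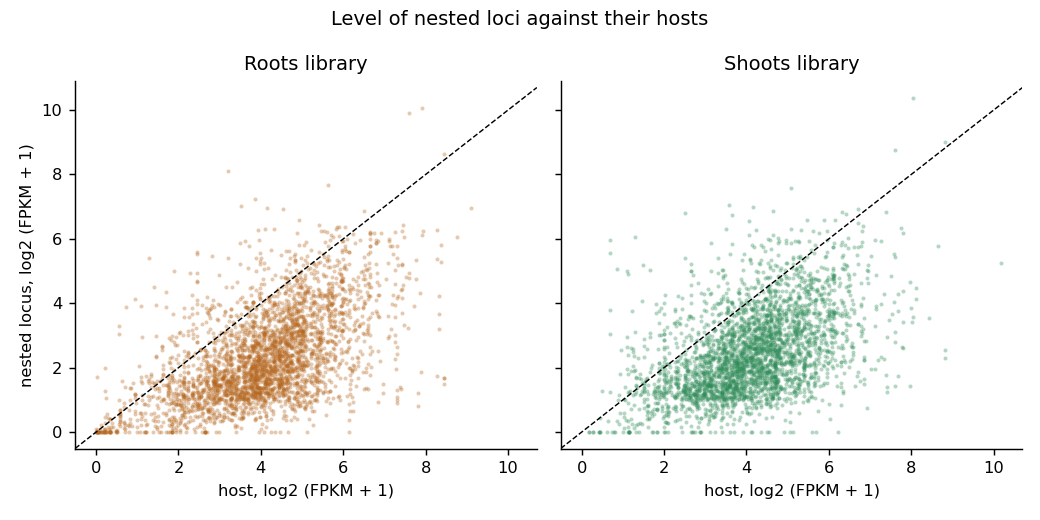
Level of each nested locus against that of its host as log2 (FPKM + 1), in roots (left) and shoots (right), 3215 pairs each; the dashed line marks equal levels. Most points lie under the line, and 286 in roots and 315 in shoots lie above it.

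The level of a nested locus also went with its own span. The 905 nested loci of 101 to 200 bp had medians of 8.13 FPKM in roots and 8.24 in shoots, while the 1599 of 201 to 500 bp had 2.52 FPKM in roots and 3.20 in shoots. Loci of the same spans that were not nested showed the same step, with 8.29 FPKM in roots and 8.75 in shoots for 101 to 200 bp and 1.81 and 2.29 FPKM for 201 to 500 bp. For very short loci FPKM hinges on the assumed fragment length, whose part in this step was not tested. Along the host, the median log2 ratio of nested locus over host was -2.02 in roots and -2.11 in shoots in the first bin, and -1.59 in roots and -1.34 in shoots in bin 9. Inside single hosts this was less clear. There were 269 hosts with nested loci on both sides of the host's midpoint. The mean log2(FPKM + 1) was higher on the 3′ side in 147 of them in roots and in 149 in shoots, and the median difference of 3′ minus 5′ side was 0.13 in roots and 0.15 in shoots.

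The most abundant nested loci were among the few that stood near or above their hosts. The highest, at chr4:18223045-18223269 (plus strand), had 1066 FPKM in roots and 1334 in shoots. It spanned 225 bp and began 1241 bp from the 5′ end of a host of 149894 bp, which had 238 FPKM in roots and 261 in shoots. A locus of 182 bp at chr9:150151781-150151962 (minus strand) had 396 FPKM in roots and 513 in shoots, against 348.5 FPKM in roots and 449 in shoots for its host of 63680 bp. The 2 other nested loci of that host were far lower, at 1.84 and 2.17 FPKM in roots and 3.89 and 4.91 FPKM in shoots. Both abundant loci and their hosts had log2 ratios of roots over shoots between -0.37 and -0.14.

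Other abundant nested loci did differ between the organs. A locus of 1553 bp at chr7:108302403-108303955 (minus strand) had 965 FPKM in roots and 53.5 in shoots. Its host of 107148 bp had 194 FPKM in roots and 398 in shoots, so the nested locus was above the host in roots and below it in shoots. On the plus strand of chromosome 1, a locus of 132 bp from 265152923 to 265153054 had 275 FPKM in roots and 110 in shoots. Its host of 130671 bp had 8.23 FPKM in roots and 4.67 in shoots, and the nested locus lay next to the 3′ end, with its midpoint at 99.1% of the host. The log2 ratio of nested locus over host was 4.90 in roots and 4.29 in shoots there, the largest excess over a host in roots among the loci identified here.

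Large excess over the host was also found in small hosts. On the minus strand of chromosome 8, a locus of 111 bp from 8977467 to 8977577 had 19.2 FPKM in roots and 64.9 in shoots, in a host of 4205 bp at 2.22 FPKM in roots and 1.46 in shoots. On the plus strand of chromosome 1, a locus of 693 bp from 277206169 to 277206861 had 21.9 FPKM in roots and 32.7 in shoots, in a host of 1589 bp at 1.65 FPKM in roots and 0.801 in shoots. Each was above its host in both libraries, and each had a higher level in shoots while its host had a higher level in roots.

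Between the organs, nested loci were called organ-biased about as often in either direction. A locus was called when log2((roots FPKM + 1)/(shoots FPKM + 1)) was at least 2 in size, a 4-fold difference, with at least 1 FPKM in the higher tissue. Of the nested loci 124 (3.86%) were higher in roots and 135 (4.20%) were higher in shoots, where over all loci the shares were 3.95% and 7.55%. Of the hosts, 56 (2.73%) were higher in roots and 126 (6.15%) were higher in shoots. In bulk tissue, fewer cells of a type and less RNA per cell cannot be told apart. Nested loci held 47.9% root-biased loci among those called, hosts 30.8% and all loci 34.3%. When the roots were rescaled to equal sums or medians the share among nested loci was 50.2% and 51.5%. The count of nested loci higher in shoots was therefore not above that in roots with equal sums or medians. With equal upper quartiles the share stayed at 47.9%, and shoots kept the higher count. Hosts higher in roots and in shoots numbered 59 and 123 with equal sums, and 63 and 119 with equal medians. The rescaled share over all loci was not computed.

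The lack of a shoot excess went with the shortest nested loci. Among those of 101 to 200 bp, 92 of 905 (10.2%) were higher in roots and 65 (7.18%) were higher in shoots, while loci of that span that were not nested had 7.44% and 12.2%. Among nested loci of 201 to 500 bp, 27 (1.69%) were higher in roots and 40 (2.50%) were higher in shoots, against 2.41% and 6.67% of loci that were not nested. From 501 to 2000 bp the nested shares were 0.796% and 3.82%, against 7.18% and 10.1%. In these 3 span classes the share higher in shoots was lower among nested loci than among the others, but above 2000 bp it was 7.23% of 83 nested loci against 6.81%. Loci at or under 5 FPKM in both libraries made up 50.3% of the nested loci and 28.4% of the others, and the added 1 FPKM makes calls rarer among such loci. Of these low nested loci 0.557% were called for roots and 1.61% for shoots, against 0.907% and 2.25% of the low loci that were not nested. From 10 to 50 FPKM in the higher tissue, 8.27% of 810 nested loci were higher in roots and 6.91% were higher in shoots, against 4.83% and 8.45% of the others. Loci of at most 500 bp were also classed by level. From 10 to 50 FPKM, 9.3% of 700 such nested loci were higher in roots and 6.4% in shoots, against 7.5% and 15.4% of the others. Above 50 FPKM the shares were 15.2% and 7.6% of 92 nested loci, against 6.0% and 16.7%. The share higher in shoots was lower among nested loci in every such class. At or under 10 FPKM the share higher in roots was lower among them too. How far span and level account for these shares was not tested.

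Median ratios leaned to the shoots. For nested loci the log2 ratio of roots over shoots had a median of -0.18, with quartiles of -0.73 and 0.43. The median was 0.07 for hosts and 0.06 for all loci. Among loci of at most 500 bp it was -0.18 for nested loci and -0.07 for the others, so short loci that were not nested leaned to the shoots as well, but less. Rescaling to equal medians multiplied roots by 1.086, a shift of 0.12, after which the medians were -0.08 for nested loci, 0.17 for hosts and 0.16 for all loci. Rescaling multiplies the roots of all loci by the same factor, so the gap between nested loci and all loci could hardly change. At 1 FPKM or more, 2740 nested loci (85.2%) were detected in roots, 2934 (91.3%) in shoots and 2459 (76.5%) in both. A further 281 reached that level in roots and not in shoots, and 475 in shoots and not in roots. These 756 (23.5%) entered the table through 1 library alone, so they had to differ between the libraries. Over all loci the shares detected in roots, in shoots and in both were 88.4%, 92.6% and 80.95%. Among loci of at most 500 bp that were not nested they were 77.1%, 81.3% and 58.4%. Detection in a single library was thus not particular to nested loci.

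A nested locus and its host tended to have like ratios between the organs. Over the 3215 pairs, the rank correlation of their log2 ratios was 0.59, and 2156 pairs (67.1%) had ratios of the same sign. The median absolute difference was 0.53 on the log2 scale, and 135 pairs (4.20%) differed by at least 2. For 871 antisense nested loci and their hosts the rank correlation was 0.17 and the median absolute difference 0.84. For hosts and the nearest same-strand locus outside them, at a median gap of 26395 bp, it was 0.12, and for nested loci and that same outside locus 0.07. Successive nested loci of a host, 1166 pairs from 641 hosts, had a rank correlation of 0.58. All these correlations are across loci of the same 2 libraries, and pairs with a common host are not independent.

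From 2001 bp upwards, the rank correlation was higher in small hosts than in very large ones. The rank correlation was 0.70 in the 973 pairs with hosts of 2001 to 5000 bp and 0.61 at 5001 to 10000 bp. It was 0.48 at 10001 to 20000 bp, 0.39 at 20001 to 50000 bp and 0.20 in the 171 pairs with hosts above 50 kb. The share of pairs that differed by at least 2 on the log2 scale was 3.29%, 3.57%, 3.30%, 6.89% and 10.5% in the same classes. The 42 pairs with hosts of at most 2000 bp stood apart from this order, with a rank correlation of 0.55 and 9.52% of pairs that differed by at least 2. The median absolute difference showed no such order, at 0.52, 0.55, 0.50, 0.55 and 0.52 in the classes from 2001 bp upwards. By span of the nested locus, the correlation was 0.59 at 201 to 500 bp, 0.68 at 501 to 1000 bp and 0.25 in the 83 pairs above 2000 bp. The median absolute differences of these classes were 0.50, 0.40 and 0.44. Large hosts also held the longer nested loci, with a median of 547 bp above 50 kb against 254 bp at 2001 to 5000 bp, so these classes overlap.

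**Figure D4:**
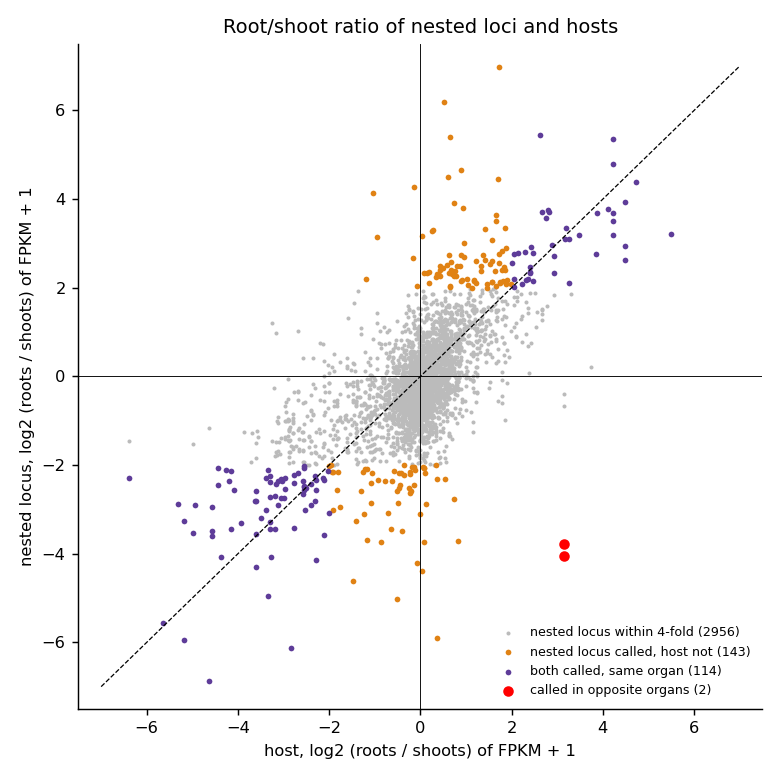
Log2 ratio of roots over shoots (FPKM + 1) of each nested locus, vertical, against that of its host, horizontal; the dashed line marks equal ratios and colours give the calls. Pairs scatter broadly along the line (rank correlation 0.59), 114 pairs were called for the same organ, and the 2 pairs called for opposite organs lie at the lower right.

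Where the host was organ-biased, the nested locus nearly always leaned the same way. In the 205 pairs whose host was higher in shoots, 194 nested loci (94.6%) had a ratio of that sign and 73 were called, with a median log2 ratio of -1.63 for nested loci and -2.80 for hosts. In the 77 pairs whose host was higher in roots, 73 nested loci (94.8%) had a ratio of that sign and 41 were called, with medians of 2.12 and 2.55. The nested ratios are the smaller in size, on a scale whose added 1 FPKM limits low loci more than high ones. Over all pairs 67.1% had ratios of the same sign. Nested loci under 1 FPKM in the other tissue had their sign fixed by being listed, and they were not counted apart. By calls instead of sign, 53.3% of the 77 nested loci in root-biased hosts were called for roots. In shoot-biased hosts 35.6% of the 205 were called for shoots. Seen from the nested loci, the shares by calls were lower for roots and higher for shoots. Of the 124 nested loci higher in roots, 41 (33.1%) had a host called for roots, and of the 135 higher in shoots, 73 (54.1%) had a host called for shoots.

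Nested loci that were called while their host was not were mostly very short. There were 83 higher in roots, with a median span of 142 bp, and 64 of them spanned at most 200 bp. Their median level was 19.8 FPKM in roots and 1.76 in shoots, and that of their hosts 31.0 FPKM in roots and 15.2 in shoots. In 77 of the 83 the host was itself higher in roots, by less than 4-fold. Another 60 were higher in shoots, with a median span of 179.5 bp. Their median level was 0.507 FPKM in roots and 12.2 in shoots, and that of their hosts 13.5 FPKM in roots and 17.2 in shoots. In 47 of the 60 the host leaned to the shoots as well, and 36 of the 60 spanned at most 200 bp. Where the host was called for the same organ, 28 of 41 root-biased nested loci were that short. For shoots it was 29 of 73. Short span among root-biased nested loci was thus not particular to pairs with an uncalled host.

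The largest ratios between organs belonged to very short nested loci listed at 0 in a tissue. Only nested loci that reached 10 FPKM in roots or shoots were ranked. The largest root bias was that of P_XLOC_029333, at chr9:152418352-152418453 (plus strand), with 125 FPKM in roots and 0 listed in shoots. Its host of 5687 bp had 16.6 FPKM in roots and 4.37 in shoots. The 2 other nested loci of this host, of 233 and 210 bp, had 11.5 and 12.5 FPKM in roots and 1.12 and 0.998 FPKM in shoots. All 3 nested loci were called for roots while the host, at a log2 ratio of 1.71, was not. M_XLOC_015534, at chr4:186950746-186950846 (minus strand), had 71.7 FPKM in roots and 0 listed in shoots, in a host of 3348 bp at 106 FPKM in roots and 73.9 in shoots.

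The largest shoot bias was that of M_XLOC_022524, at chr7:4373142-4373253 (minus strand), which was listed at 0 in roots and had 116 FPKM in shoots. Its host of 66743 bp had 0.00898 FPKM in roots and 24.0 in shoots, so host and nested locus were both at or close to 0 in roots. P_XLOC_020167, at chr6:48725294-48725394 (plus strand), was listed at 0 in roots and had 69.1 FPKM in shoots, with a host of 18053 bp at 1.32 FPKM in roots and 15.7 in shoots. In all, 19 nested loci were at 10 FPKM or more in roots and listed at 0 in shoots, 17 of them at most 200 bp long, and 11 were at 10 FPKM or more in shoots and listed at 0 in roots. The hosts of 17 of the 19 were detected in shoots, and those of 8 of the 11 in roots. The same counts were not made over all loci, so they cannot be called particular to nested loci. At any level, 52 of 2504 nested loci of at most 500 bp were listed at 0 in shoots and 60 in roots. Among 3765 loci of that span that were not nested, 138 and 221 were. No fold is given for a locus listed at 0, because without counts a 0 can be a failed estimate.

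A single host carried both pairs with opposite calls. It lies at chr5:210043333-210162293 (minus strand) and had 13.5 FPKM in roots and 0.623 in shoots. A nested locus of 1482 bp, from 210155571 to 210157052, had 2.78 FPKM in roots and 61.9 in shoots, and one of 1334 bp, from 210105038 to 210106371, had 2.41 FPKM in roots and 45.8 in shoots. The 2 others in this host, of 5139 and 3635 bp, had 7.59 and 5.29 FPKM in roots and 12.7 and 7.28 FPKM in shoots. All 4 nested loci thus leaned to the shoots, at log2 ratios of -4.06 to -0.40, inside a host at 3.16. The nested locus of 1482 bp also lay inside another locus of 28530 bp that overlaps the host's 5′ end, at 760 FPKM in roots and 440.5 in shoots. With hosts of at most 20 kb, a limit chosen after the values were seen, there was no pair with opposite calls.

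A further strong difference was found in a host that itself differed little between the organs. On the minus strand of chromosome 7, a nested locus of 1666 bp from 6576656 to 6578321 had 0.299 FPKM in roots and 76.5 in shoots. Its host, of 61432 bp, had 23.3 FPKM in roots and 17.8 in shoots. The log2 ratios were -5.90 and 0.37. This pair, the 2 on chromosome 5 and the pairs of P_XLOC_029333 and M_XLOC_015534 were the 5 that differed most among pairs in which each locus reached 10 FPKM in roots or shoots.

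Several hosts carried runs of nested loci that shared their bias. They were chosen with their values known, among the 23 hosts that were called for an organ and held at least 3 nested loci. On the minus strand of chromosome 3, a host from 46573072 to 46579369 had 40.2 FPKM in roots and 1.20 in shoots. Its 4 nested loci had 8.18 to 26.8 FPKM in roots and were all listed at 0 in shoots. On the plus strand of chromosome 9, a host from 26998888 to 27008257 had 5.40 FPKM in roots and 36.8 in shoots, and its 4 nested loci had 2.54 to 13.6 FPKM in roots and 19.1 to 60.5 in shoots. All 4 nested loci were called in each of these hosts, for the organ of the host.

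Called hosts also held nested loci that did not reach 4-fold themselves. On the minus strand of chromosome 2, a host from 128369020 to 128378502 had 0.261 FPKM in roots and 7.76 in shoots. Its 7 nested loci had at most 0.336 FPKM in roots and 1.13 to 3.14 in shoots, at log2 ratios of -1.94 to -1.01, and none was called. On the plus strand of chromosome 6, a host from 90806413 to 90816028 had 14.6 FPKM in roots and 114 in shoots. Its 5 nested loci had 0.376 to 2.27 FPKM in roots and 2.17 to 10.6 in shoots, and again none was called. The 7 nested loci on chromosome 2 reached 1 FPKM in shoots alone, so their listing fixed the sign of their ratios. The 5 on chromosome 6 were each the higher in shoots.

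The 3 hosts with the most nested loci were not called for either organ. A host of 14794 bp at chr1:157223914-157238707 (plus strand) held 14 nested loci of 101 to 619 bp. It had 61.8 FPKM in roots and 68.1 in shoots, and the nested loci had 3.67 to 59.9 FPKM in roots, with a median of 16.3 FPKM, and 4.58 to 53.0 FPKM in shoots, with a median of 20.3 FPKM. None was above the host in its library. The one with the largest ratio between organs had 59.9 FPKM in roots and 27.6 in shoots, and spanned 101 bp.

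A host of 45889 bp at chr4:82149949-82195837 (plus strand) held 12 nested loci of 345 to 5685 bp. It had 3.39 FPKM in roots and 5.70 in shoots, and they had 0.484 to 3.10 FPKM in roots and 0.869 to 5.55 in shoots. The third of these hosts, at chr10:86522596-86535907 (minus strand), spanned 13312 bp and held 11 nested loci of 200 to 2195 bp. It had 12.9 FPKM in roots and 11.5 in shoots, against 1.10 to 15.4 FPKM in roots and 1.03 to 15.3 in shoots for its nested loci. No nested locus of these 3 hosts was called, and their log2 ratios lay between -0.85 and 1.09. Across the 121 hosts with at least 4 nested loci, the range of the nested log2 ratios within a host had a median of 1.20 and went up to 6.66, and in 45 hosts all nested loci had ratios of 1 sign.

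**Figure D5:**
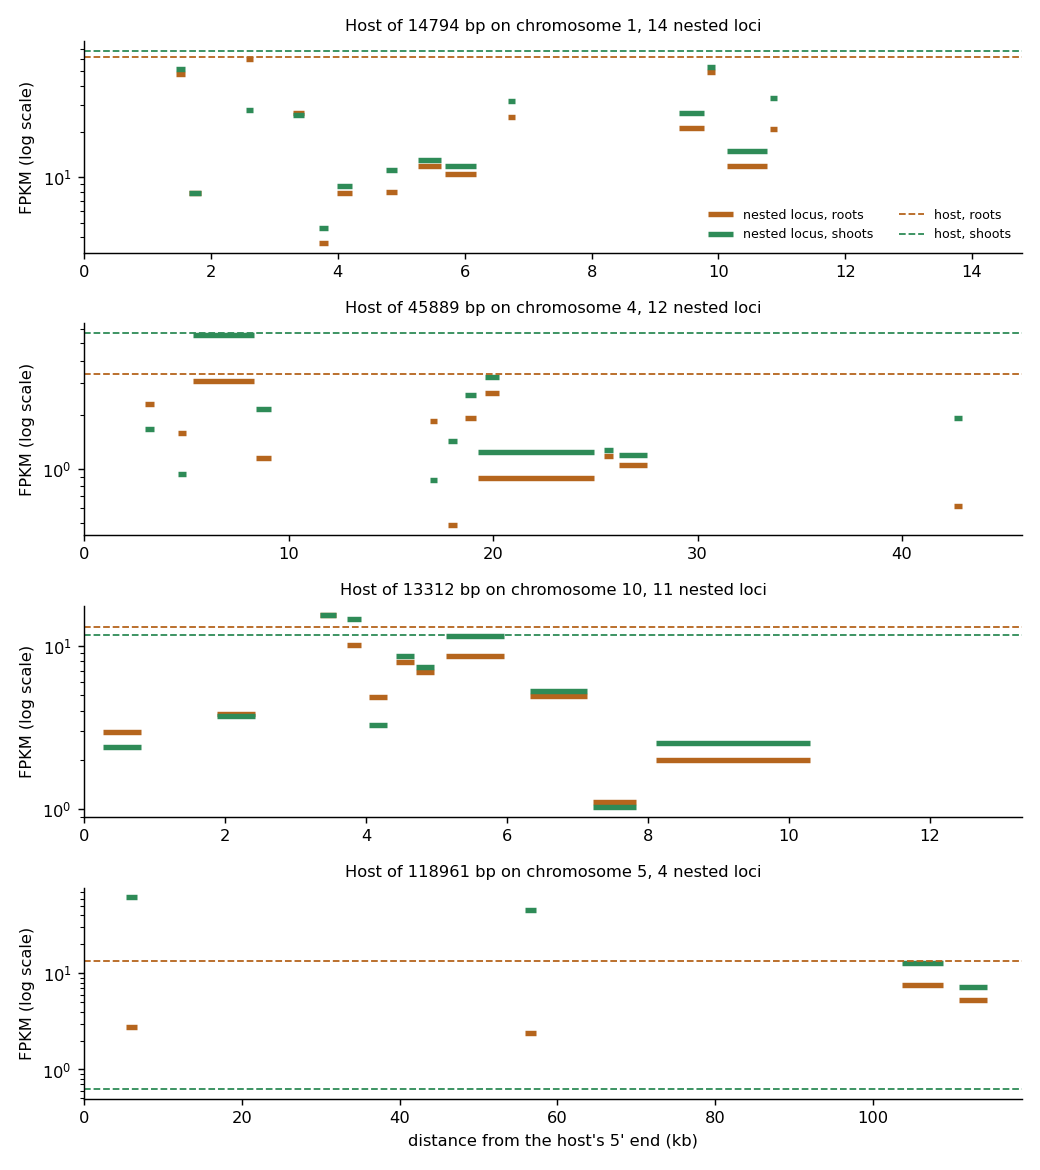
Nested loci along 4 hosts, by distance from the host's 5′ end in kb and level in FPKM on a log axis, in roots and shoots; bars span each nested locus (drawn at no less than 0.8% of the host) and dashed lines give the host's levels. In the upper 3 hosts, with 14, 12 and 11 nested loci, most bars lie at or under the host lines; in the host on chromosome 5 the shoot bars of all 4 nested loci lie above its shoot level of 0.623 FPKM.

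The longest host of all spanned 537036 bp, at chr2:226962774-227499809 (plus strand), with 8.61 FPKM in roots and 7.10 in shoots. Its 4 nested loci spanned 243 to 4920 bp. The nested locus of 243 bp, 82497 bp from the 5′ end, had 13.1 FPKM in roots and 12.7 in shoots, and that of 4920 bp had 7.35 FPKM in roots and 15.0 in shoots. The first was above the host in both libraries and the second in shoots. Among the chromosomes, chromosome 5 had the largest share of nested loci higher in roots, at 7.12%, and chromosome 6 the smallest, at 1.85%. Over all chromosomes it was 3.86%. The share over all loci of each chromosome was not computed, so these values cannot be called particular to nested loci. The 26 root-biased nested loci of chromosome 5 lay in hosts from 4344681 to 211989216, and no more than 3 were in 1 host.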

How the data were processed

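Polyadenylated RNA of roots and shoots was compared, grouped by the tissue label, with 1 library each. The authors deposited 1 table of FPKM values with positions on B73 RefGen_v2, per the file header. Per the submitters' processing notes, which give no versions, TopHat, Cufflinks and Cuffdiff were used; settings and sequencing depth were not given in the sources used here. Since FPKM is divided by length, loci of different span were set side by side, and short loci depend most on the assumed fragment length.

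Containment was found from start and end on the same strand, with the longest containing locus as host. Ratios used a pseudocount of 1 FPKM. With 1 library per tissue no p-value, SD or interval is given. Correlations are Spearman's rho across loci. Loci were identified by a rule on level, ratio, excess over the host and number of nested loci; exceptions are stated. Members, lists and rules were chosen with earlier results of these data known. Scripts were tested on simulated loci. Python 3.11.15, pandas 2.3.3, NumPy 2.4.6 and Matplotlib 3.10.9 were used. No genome sequence was used, so none is shown.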

Additional observations from a re-analysis of the deposited data

How the results depend on the processing

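Over 14 results, 148 values were recomputed under other settings: 96 stayed within 1.5 times a count, or within the 95% sampling interval of a median or correlation that takes loci as independent, which they are not. The other 52 moved. Only the median log2 ratios of nested locus over host and the rank correlation could change sign, and none did. The settings with hosts of at most 20 kb and 1 nested locus per host (the most abundant) were chosen after seeing the data. Requiring ends strictly inside the host changed nothing, since no end is shared.

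With a pseudocount of 0.1 FPKM, 232 nested loci were higher in roots and 341 in shoots. These counts were 32 and 28 with 5 FPKM, 403 and 548 at 2-fold, 38 and 43 at 8-fold, and 32 and 70 for nested loci of at least 200 bp. The order of the organs turned with 5 FPKM, with scaling to equal sums (129 and 128) or medians (134 and 126), with both loci at 5 FPKM or more (114 and 100) and with hosts of at most 20 kb (117 and 109). Hosts higher in roots and in shoots numbered 22 and 66 with 5 FPKM, 207 and 256 at 2-fold, 15 and 49 at 8-fold, and 37 and 71 with both loci at 5 FPKM or more. With nested loci of at least 200 bp, 35 hosts were higher in roots. Pairs with the same bias numbered 242 with 0.1 FPKM, 24 with 5 FPKM, 436 at 2-fold, 33 at 8-fold and 57 from 200 bp. Pairs with opposite bias numbered 0 with 5 FPKM, 12 at 2-fold, 1 with the shortest or the most abundant host or with 1 nested locus per host, and 0 with hosts of at most 20 kb.

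With both loci at 5 FPKM or more, 1544 pairs remained and 182 nested loci were above the host in roots. From 200 bp, 161 were above it in roots and 171 in shoots. The median log2 ratio of nested locus over host, in roots and in shoots, was -2.06 and -1.94 with 0.1 FPKM, -1.14 and -1.09 with 5 FPKM, -1.39 and -1.28 with both loci at 5 FPKM or more, -1.83 and -1.75 from 200 bp, and -1.55 and -1.45 with 1 nested locus per host. The rank correlation of the ratios was 0.56 with 5 FPKM, 0.62 with both loci at 5 FPKM or more, 0.63 with hosts of at most 20 kb and 0.62 with 1 nested locus per host. The median absolute difference was 0.67 with 0.1 FPKM, 0.34 with 5 FPKM, 0.57 with both loci at 5 FPKM or more and 0.47 from 200 bp. Counts that move with the pseudocount, fold or number of loci do so by construction; the cause of the other changes was not tested. No paired analysis was possible because roots and shoots have 1 library each, which also means that none can be left out. Values of low loci are limited by a depth that is unknown.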
